A study of Mus musculus with 8 samples.

Results

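The genes described here were 58 cell cycle and DNA replication genes, out of 22026 genes in the deposited count tables. They were taken by symbol from a fixed list, with the read counts of all transcripts that share a symbol added up. Of the 58, 30 act at the G1-S transition or in DNA replication and 28 act in G2 and mitosis, and these classes are described apart. The cells were TS/A and 4T1, a pair of mouse breast cancer cell lines of the BALB/c strain, each carrying, per the sample characteristics, an empty viral vector or one for Gpr56. Gpr56 is the older name of Adgrg1, a receptor of the adhesion G protein-coupled class. The 4 groups were TS/A Gpr56, TS/A empty, 4T1 Gpr56 and 4T1 empty, with 2 bulk RNA sequencing libraries each. All were grown in RPMI with 10% FCS, and the design text has the cells on type III collagen for 72 h before RNA was taken. The sample titles instead call the Gpr56 libraries Emp_ColIII and the empty libraries Emp_Control, so that by the labels alone a vector and a collagen contrast cannot be told apart. The labels do not say which promoter drives the vector, how many clones were used or whether replicate libraries stem from separate cultures. The p-values therefore measure the spread between these libraries, which may be technical.

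A cell enters the cycle when D-type cyclins with the kinases Cdk4 and Cdk6, and then E-type cyclins with Cdk2, phosphorylate the retinoblastoma family of pocket proteins. This frees E2F factors to transcribe the genes that license origins, build the replication fork and make nucleotides. Later, cyclins A and B with Cdk1 drive G2 and mitosis, and their genes are switched on late through the CHR and CCAAT promoter elements. Of these, the CHR is the one that the DREAM complex, B-Myb (Mybl2) and Foxm1 act through. D cyclins respond to growth signals, and cyclin D1 in particular is a well known driver of breast tumours.

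Promoters of members on either side of this division are shown because the letters differ between the classes before any expression value is considered. RefSeq promoters (GRCm38.p6, 250 bases before to 50 after the start) were found by symbol for 46 of the 58 members, 27 promoters of 24 G1-S genes and 23 promoters of 22 G2-M genes. The E2F core was searched on both strands in several spellings. The first was TTCGCGC, another used TTGGCGC, another TTCCCGC, and the last TTGCCGC. The CHR was read as TTTGAA and also as TTCGAA, and the CCAAT box by its own letters, likewise on both strands. The sequences below are written 5′ to 3′ on the strand of the gene, with every match on either strand in capitals. Mcm5 (chr8:75109259-75109558, plus strand) and Pola1 (chrX:93632106-93632405, minus strand) hold E2F cores and no CHR. Top2a (chr11:99024140-99024439, minus strand) and Ccnb2 (chr9:70421505-70421804, minus strand) hold CHRs with CCAAT boxes, and Mki67 (chr7:135716330-135716629, minus strand) holds all 3 kinds. A CCAAT box can share bases with an E2F core, and TTCGAA reads the same on both strands.
Mcm5: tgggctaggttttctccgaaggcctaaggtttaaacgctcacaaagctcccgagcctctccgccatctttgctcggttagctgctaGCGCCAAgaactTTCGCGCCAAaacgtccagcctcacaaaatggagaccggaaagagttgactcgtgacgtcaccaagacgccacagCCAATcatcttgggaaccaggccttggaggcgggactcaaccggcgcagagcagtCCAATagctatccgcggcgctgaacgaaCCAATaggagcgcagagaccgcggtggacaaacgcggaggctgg
Pola1: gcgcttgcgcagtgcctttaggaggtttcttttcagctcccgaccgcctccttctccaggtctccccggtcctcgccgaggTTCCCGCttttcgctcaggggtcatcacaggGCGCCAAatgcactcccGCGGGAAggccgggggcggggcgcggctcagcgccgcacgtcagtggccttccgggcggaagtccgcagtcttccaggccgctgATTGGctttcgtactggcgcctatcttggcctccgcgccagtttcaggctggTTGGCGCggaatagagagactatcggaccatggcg
Top2a: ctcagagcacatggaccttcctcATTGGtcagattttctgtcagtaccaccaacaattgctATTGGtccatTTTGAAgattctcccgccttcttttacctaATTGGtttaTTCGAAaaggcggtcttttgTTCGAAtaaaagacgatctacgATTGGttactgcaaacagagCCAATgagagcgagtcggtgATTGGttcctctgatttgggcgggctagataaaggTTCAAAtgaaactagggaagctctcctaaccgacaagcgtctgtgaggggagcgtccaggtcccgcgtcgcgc
Ccnb2: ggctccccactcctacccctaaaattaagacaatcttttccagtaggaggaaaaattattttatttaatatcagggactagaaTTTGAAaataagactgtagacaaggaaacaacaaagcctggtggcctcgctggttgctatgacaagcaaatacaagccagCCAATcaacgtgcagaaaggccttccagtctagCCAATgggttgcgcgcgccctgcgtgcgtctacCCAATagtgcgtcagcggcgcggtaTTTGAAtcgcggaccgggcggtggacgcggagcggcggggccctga
Mki67: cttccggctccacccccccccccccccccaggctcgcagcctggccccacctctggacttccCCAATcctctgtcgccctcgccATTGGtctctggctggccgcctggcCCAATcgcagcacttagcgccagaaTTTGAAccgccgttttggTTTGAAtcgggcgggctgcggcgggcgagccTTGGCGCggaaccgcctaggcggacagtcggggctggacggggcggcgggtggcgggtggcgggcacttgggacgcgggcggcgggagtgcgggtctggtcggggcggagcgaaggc
The E2F core was in 12 of 27 G1-S promoters (44.4%) and 4 of 23 G2-M promoters (17.4%), beside 9.57% of all 32851 promoters of the same length. The CHR ran the other way, in 4 of 27 G1-S promoters (14.8%) and 18 of 23 G2-M promoters (78.3%), beside 19.2% of all. All 18 G2-M promoters with a CHR also had a CCAAT box, a combination that 7.52% of all promoters held, and CCAAT boxes alone were in 63.0% of G1-S, 87.0% of G2-M and 37.4% of all promoters. These matches describe letters in a window and are no evidence that a factor binds there. Of the members shown, Top2a and Ccnb2 moved in opposite directions in 4T1, as did Mcm5 and Pola1 between the lines. Whether direction went with these elements over the members was not tested.

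**Figure D1:**
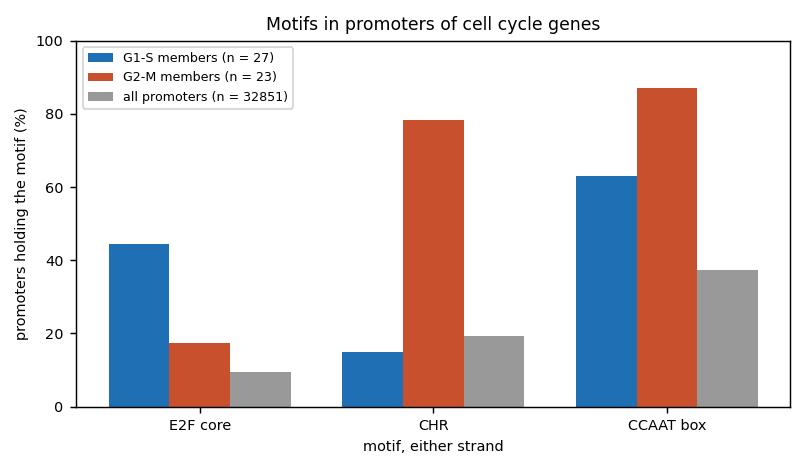
Share of promoters (%, vertical axis) that hold each motif (horizontal axis) on either strand, for G1-S members, G2-M members and all RefSeq promoters of the same length, with the number of promoters in the legend. The CHR stands at 78.3% of G2-M promoters and 14.8% of G1-S promoters, the E2F core at 17.4% and 44.4%.

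The libraries held 10510569 to 25959142 reads. No member had fewer than 158 reads in any of them, and every member entered every test. Levels per gene are given as CPM, read counts scaled to a common depth with TMM factors over the 8 libraries. The biological coefficient of variation was 5.47% in 4T1. Counting error exceeded it in some 4T1 library for 2 members, E2f2 (up to 7.96%) and Cdc25c. The coefficient was 19.6% in TS/A, where the 2 empty-vector libraries stood far apart. Their chi-square per degree of freedom over genes was 123, against 18.0, 5.54 and 3.64 for the pairs of TS/A Gpr56, 4T1 Gpr56 and 4T1 empty. Vector comparisons were therefore fitted within each line. In TS/A, Epcam, Cdh1, Krt8, Krt7, Cldn4 and Cldn7, 6 of 8 epithelial markers, stayed below 1 CPM in all libraries, although the line is labelled a breast cancer line. Of 12 immune markers 10 and of 8 endothelial markers 8 were below 1 CPM in every library. Adgrg1 itself, the gene on the vector, had 90.5 and 100.1 CPM in 4T1 Gpr56 libraries, against 2.53 and 2.77 CPM in 4T1 empty libraries (log2 fold change 5.15, SE 0.11, adjusted p = 7.74e-14). In TS/A it had 22.6 and 13.3 CPM in libraries labelled Gpr56, against 34.8 and 16.3 CPM in empty libraries (log2 fold change -0.51, SE 0.41, adjusted p = 0.9999). The vector label was not borne out by the RNA there, and every TS/A comparison of vectors below is one of labels.

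Per length of transcript, some members, such as Cdk4, Pcna and E2f2, ranked alike in both lines, while others, such as Ccnd1, did not. By the deposited RPKM, summed over transcripts, Cdk4 was highest of the 58 in TS/A Gpr56-label libraries (429 ± 7.87 RPKM, mean ± SD, n = 2), TS/A empty libraries (391 ± 51.0) and 4T1 Gpr56 libraries (343 ± 20.9), and rank 2 in 4T1 empty libraries (313 ± 15.7). Cyclin D1 (Ccnd1), its partner, was highest in 4T1 empty libraries at 319 ± 0.756 RPKM and rank 3 in 4T1 Gpr56 libraries at 272 ± 4.57 RPKM. It held only rank 9 in TS/A, at 144 ± 11.5 RPKM with the Gpr56 label and 159 ± 28.3 RPKM with the empty vector. Of the other D cyclins and partners, Ccnd2, Ccnd3 and Cdk6 sat far down the order, at ranks 32 to 57. The sliding clamp Pcna held rank 2 or 3 in every group. Cdk1, the mitotic kinase, led the G2-M class in TS/A Gpr56-label (229.8 ± 7.97 RPKM), 4T1 Gpr56 (253 ± 12.2 RPKM) and 4T1 empty libraries (233 ± 9.08 RPKM). In TS/A empty libraries the survivin gene Birc5 led it at 228 ± 36.6 RPKM, with Cdk1 at 221 ± 24.3 RPKM. The activator factor E2f2 was lowest throughout, at 1.95 to 2.93 RPKM.

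**Figure D2:**
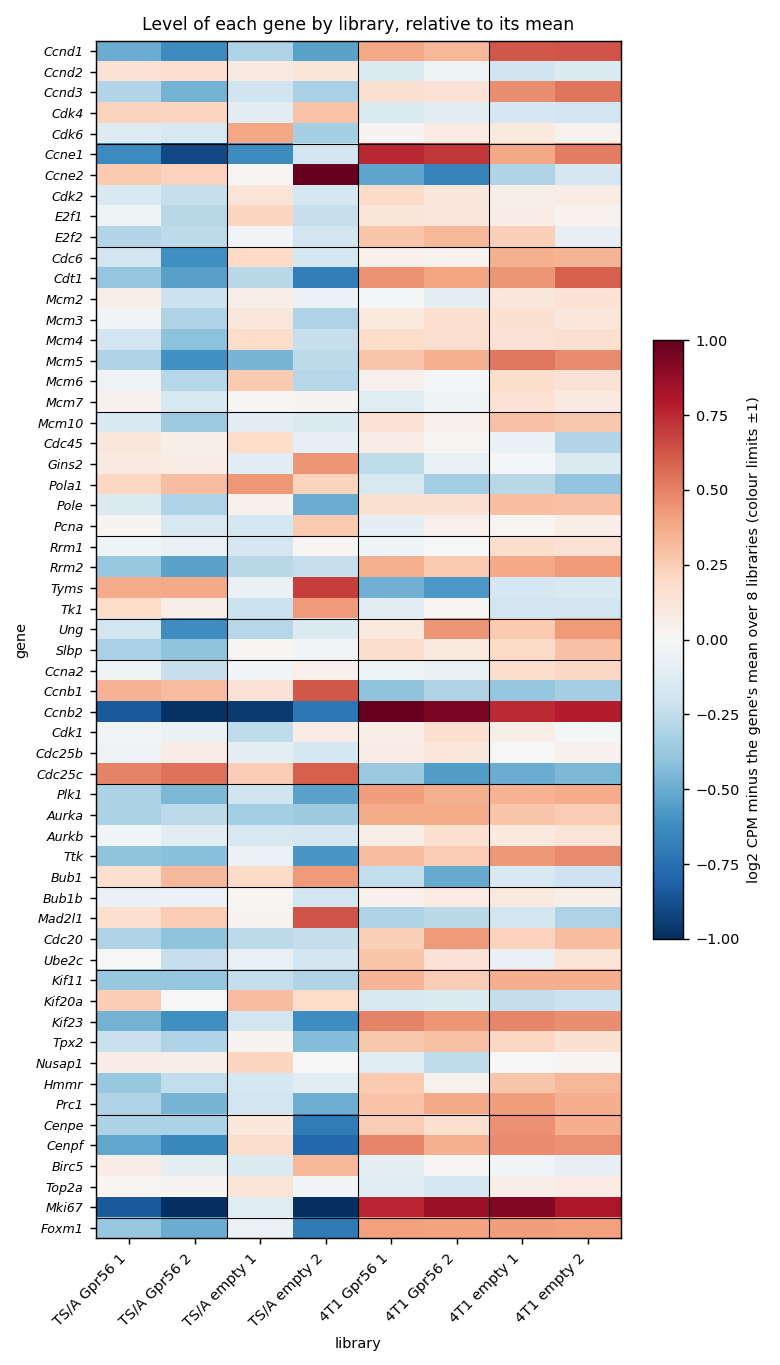
Level of each of the 58 genes (rows, by role, G1-S above G2-M) in each of the 8 libraries (columns), as log2 CPM minus the mean of that gene over the 8 libraries, with colours capped at 1 in either direction. Ccnb2, Mki67, Ccne1 and Ccnd1 are paler or blue in TS/A and red in 4T1, and the column of TS/A empty library 1 departs from that of library 2.

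In 4T1, the cyclin genes Ccnd1, Ccnd3, Ccne2 and Ccna2 and 4 of 8 origin licensing genes were lower in Gpr56 than in empty libraries. These falls were small, at most 0.36 on the log2 scale. The cyclin genes Ccne1 and Ccnb2 rose. Most genes of either class did not pass the test, 18 of 30 G1-S and 23 of 28 G2-M genes. With edgeR's quasi-likelihood test and Benjamini-Hochberg adjustment over 11361 genes, a threshold of 0.05 was passed by 17 of the 58 members. Of the 30 G1-S genes 2 rose and 10 fell, and of the 28 G2-M genes 1 rose and 4 fell. Over all genes tested, 22.8% passed, 11.5% higher and 11.3% lower (1308 and 1280 genes; scaled by library totals alone, without TMM, 1624 and 1042). The share of G1-S genes that fell was thus 33.3% beside that 11.3%, whereas the G2-M share was 14.3%. Median SEs were 0.059 for G1-S and 0.058 for G2-M genes, beside 0.096 for all genes tested, so smaller changes could pass in members. Among genes with at least 10 CPM in 2 libraries, 28% of all genes passed in either direction, beside 29.3% of members. The median log2 fold change was -0.093 for G1-S and -0.011 for G2-M genes, beside -0.00040 for all genes tested. Both Gpr56 libraries lay below both empty libraries for 14 of 30 G1-S and 9 of 28 G2-M genes, beside 31.2% of all genes.

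Among D cyclins and their kinases, Ccnd1 fell to 1082 and 1048 CPM in 4T1 Gpr56 libraries, against 1278 and 1285 CPM in 4T1 empty libraries (log2 fold change -0.27, SE 0.049, adjusted p = 0.00123). Ccnd3, cyclin D3, had 52.3 and 52.0 CPM in 4T1 Gpr56 libraries, against 65.0 and 68.3 CPM in 4T1 empty libraries (log2 fold change -0.35, SE 0.067, adjusted p = 0.00143). For both genes the pairs were well separated, with the 2 libraries of a group closer to each other than to any of the other group. Cyclin D2 (Ccnd2) had 175 and 185 CPM in 4T1 Gpr56 libraries, against 167 and 175 CPM in 4T1 empty libraries, and did not pass (log2 fold change 0.072, SE 0.058, adjusted p = 0.414). The kinases they bind did not pass either. Cdk4 had 482 and 496 CPM in 4T1 Gpr56 libraries, against 476 and 467 CPM in 4T1 empty libraries (log2 fold change 0.052, SE 0.052, adjusted p = 0.516). Cdk6 had 112 and 117 CPM in 4T1 Gpr56, against 118 and 113 CPM in 4T1 empty libraries (log2 fold change -0.011, SE 0.059, adjusted p = 0.924).

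The E cyclins, which activate Cdk2 at the start of S phase, moved in opposite directions. Ccne1 rose to 35.2 and 34.2 CPM in 4T1 Gpr56 libraries, against 27.4 and 29.7 CPM in 4T1 empty libraries (log2 fold change 0.28, SE 0.092, adjusted p = 0.0375). Ccne2 fell to 39.8 and 36.1 CPM in 4T1 Gpr56 libraries, against 46.5 and 50.9 CPM in 4T1 empty libraries (log2 fold change -0.35, SE 0.082, adjusted p = 0.00595). Groups did not overlap for either gene. E2f1, the factor that these kinases release, had 44.2 and 43.9 CPM in 4T1 Gpr56 libraries, against 42.7 and 41.8 CPM in 4T1 empty libraries (log2 fold change 0.061, SE 0.075, adjusted p = 0.612).

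Of 8 licensing genes, which load the MCM helicase at origins, 4 fell and none rose, beside 11.3% of all genes lower and 11.5% higher. Cdc6, a loading factor, had 81.2 and 80.7 CPM in 4T1 Gpr56 libraries, against 101 and 99.6 CPM in 4T1 empty libraries (log2 fold change -0.30, SE 0.060, adjusted p = 0.00190). Mcm7 fell by 0.20, Mcm5 by 0.18 and Mcm2 by 0.17 on the log2 scale, whereas Mcm3, Mcm4, Mcm6 and Cdt1, of the same complex or pathway, did not pass (-0.0035, 0.016, -0.15 and -0.094). In the replisome, the helicase cofactor Cdc45 rose to 75.8 and 72.5 CPM in 4T1 Gpr56 libraries, against 68.8 and 58.8 CPM in 4T1 empty libraries (log2 fold change 0.22, SE 0.076, adjusted p = 0.0455). Mcm10 fell by 0.18 on the log2 scale. Pcna had 433 and 478 CPM in 4T1 Gpr56 libraries, against 469 and 483 CPM in 4T1 empty libraries, with overlapping groups (log2 fold change -0.065, SE 0.058, adjusted p = 0.464). In nucleotide synthesis, thymidylate synthase (Tyms) showed the largest fall of the 58, to 106 and 99.7 CPM in 4T1 Gpr56 libraries, against 132 and 133 CPM in 4T1 empty libraries (log2 fold change -0.36, SE 0.059, adjusted p = 0.000484). The ribonucleotide reductase subunit Rrm1 fell by 0.19 on the log2 scale, and its partner Rrm2 (-0.089) did not pass.

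Among G2-M genes of 4T1, the 2 B cyclins differed. Ccnb2 rose to 166 and 155 CPM in 4T1 Gpr56 libraries, against 135 and 139 CPM in 4T1 empty libraries (log2 fold change 0.23, SE 0.059, adjusted p = 0.0107). Ccnb1 had 250.2 and 269 CPM in 4T1 Gpr56, against 254 and 262 CPM in 4T1 empty libraries, with overlapping groups (log2 fold change 0.0054, SE 0.057, adjusted p = 0.959). Cyclin A2 (Ccna2), which acts in S phase as well as G2, fell to 326 and 322 CPM in 4T1 Gpr56 libraries, against 383 and 391 CPM in 4T1 empty libraries (log2 fold change -0.25, SE 0.052, adjusted p = 0.00258). Top2a, the topoisomerase that untangles replicated chromosomes, fell to 809 and 778 CPM in 4T1 Gpr56 libraries, against 919 and 931 CPM in 4T1 empty libraries (log2 fold change -0.22, SE 0.051, adjusted p = 0.00543). The kinetochore motor Cenpe had 154 and 144 CPM in 4T1 Gpr56 libraries, against 177 and 166 CPM in 4T1 empty libraries (log2 fold change -0.20, SE 0.060, adjusted p = 0.0275). The spindle protein Nusap1 had 85.1 and 77.8 CPM in 4T1 Gpr56, against 92.9 and 93.8 CPM in 4T1 empty libraries (log2 fold change -0.19, SE 0.064, adjusted p = 0.0426). Mki67, Cdk1 and Foxm1 did not pass, unlike Ccna2 and Top2a. Mki67 had 503 and 538 CPM in 4T1 Gpr56 libraries, against 562 and 518 CPM in 4T1 empty libraries (log2 fold change -0.054, SE 0.058, adjusted p = 0.556). Cdk1 had 351 and 375 CPM in 4T1 Gpr56, against 350.1 and 331 CPM in 4T1 empty libraries (log2 fold change 0.091, SE 0.057, adjusted p = 0.274). The mitotic transcription factor Foxm1 had 167 and 166 CPM in 4T1 Gpr56, against 168 and 167 CPM in 4T1 empty libraries (log2 fold change -0.011, SE 0.055, adjusted p = 0.914). No mitotic kinase (lowest adjusted p = 0.0684) and no spindle checkpoint or APC/C member (lowest adjusted p = 0.0772) passed, beside 22.8% of all genes.

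**Figure D3:**
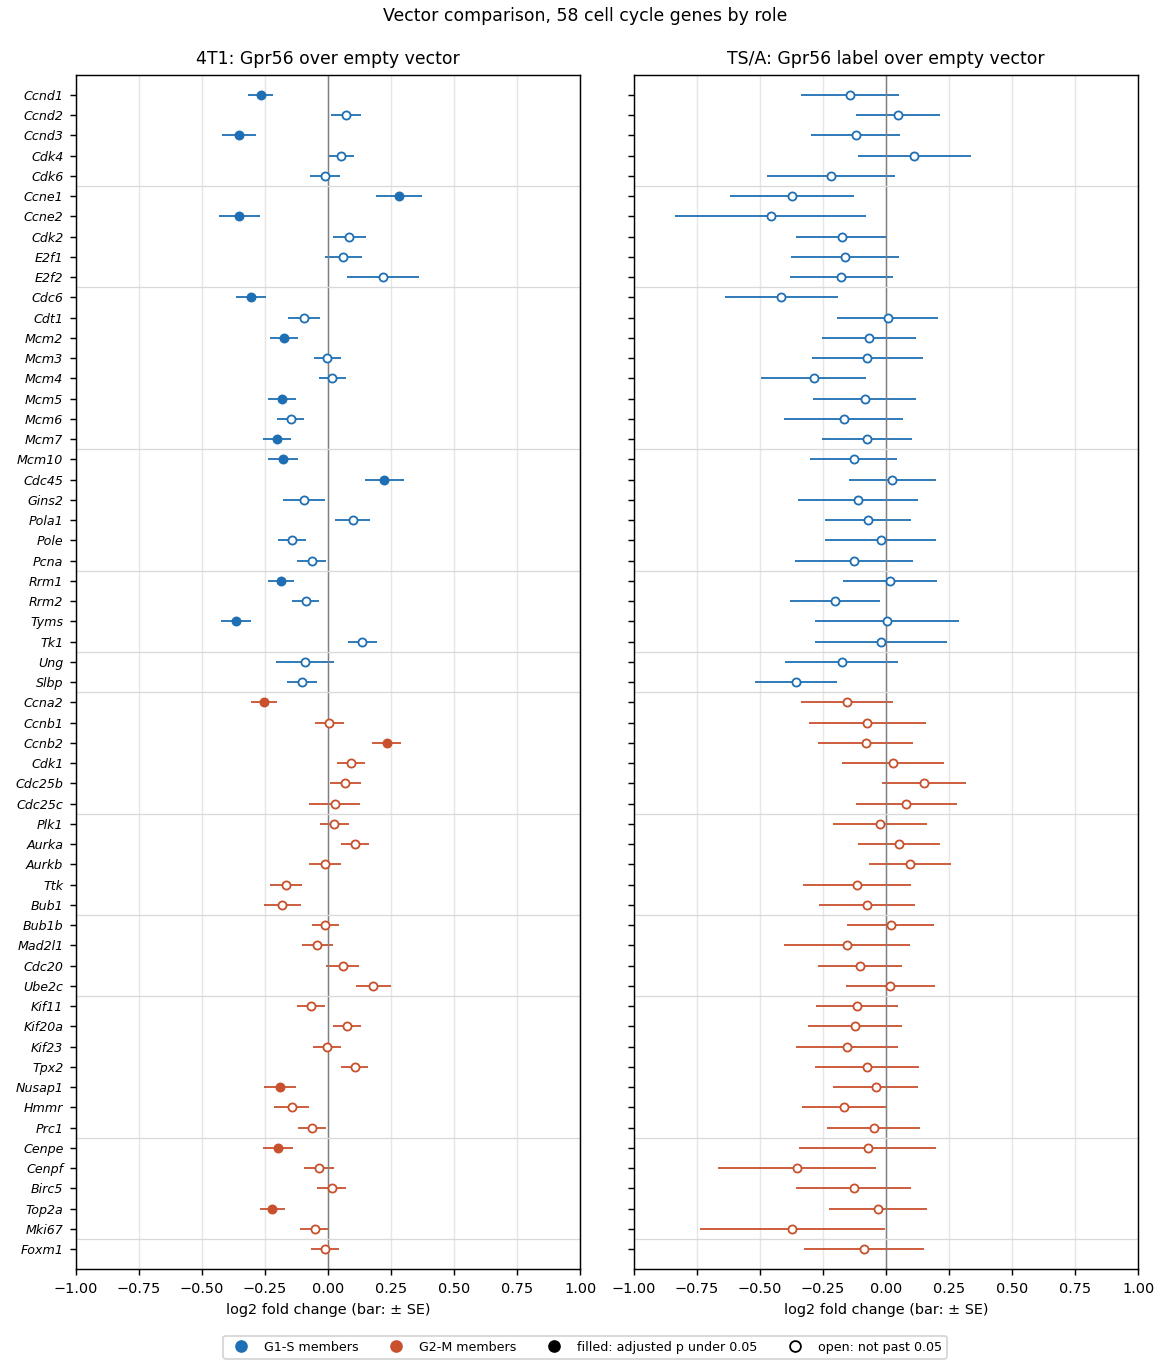
Log2 fold change of each gene (points, bars ± SE) between vectors in 4T1 (left, Gpr56 over empty) and TS/A (right, Gpr56 label over empty), by role from G1-S at the top to G2-M below, with filled points past an adjusted p of 0.05. In 4T1 17 points are filled, 14 of them left of 0, and in TS/A none is filled and the bars are wider.

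These 4T1 calls changed with the test, the scaling, the spread and the libraries used. DESeq2 kept 11 of the 17 (13.6% of all genes called) and library totals 12 (23.5%). DESeq2 lost those of Ccne1 (adjusted p = 0.152), Cdc45 (0.158), Cenpe (0.0678) and Nusap1 (0.158), and library totals those of Cenpe (0.0629) and Nusap1 (0.0897), among others. Over 12 alternatives the adjusted p of these 4 genes ran from 0.0101 to 0.821. With the spread pooled over all 8 libraries, 0 of the 17 members passed, beside 0.226% of all genes (adjusted p = 0.302 for Ccnd3 and 0.482 for Ccnd1). Those were the highest values for these genes over 12 alternatives, the lowest being 3.52e-05 for Ccnd3 and 8.07e-06 for Ccnd1. Leaving out 4T1 empty library 2 kept 4 of the 17 calls, which were Tyms, Ccnd3, Cdc6 and Ccnd1, and leaving out 4T1 empty library 1 kept 7. All genes then passed at 12.2% and 13.7%. Without Gpr56 library 1 or 2, 14 and 13 stayed. Reads of Ccnd3, Ccne2, Ccna2, Cdc45, Mcm7 and Nusap1 overlap exons of genes on the opposite strand (Bysl, Ints8, Exosc9, Ufd1, Cops6 and Oip5), which the library kit cannot tell apart. Epithelial markers moved with the same contrast, with 7 of 8 higher in both 4T1 Gpr56 libraries than in both empty libraries. Their summed level was 3262 and 3198 CPM in 4T1 Gpr56 libraries, against 2232 and 2202 CPM in 4T1 empty libraries. Of 12 immune markers 3 were higher in the same sense (Cd68, Cd14 and Csf1r). Of all 11361 genes tested in 4T1, 3465 had both Gpr56 libraries above both empty ones. Csf1r was near the limit of 3 reads, at 0.24 and 0.29 CPM in 4T1 Gpr56 libraries, against 0.11 and 0.046 CPM in 4T1 empty libraries. The immune markers summed to 25.2 and 28.3 CPM in 4T1 Gpr56 libraries, against 15.0 and 13.5 CPM in 4T1 empty libraries. Cd3e, Ms4a1, Nkg7 and Adgre1 were at 0. Fibroblast markers summed to 9.30 and 10.8 CPM in 4T1 Gpr56 libraries, against 16.5 and 16.5 CPM in 4T1 empty libraries, with Pdgfra at 8.02 and 8.37 CPM in Gpr56, against 13.2 and 13.1 CPM in empty libraries, and Lum and Thy1 at 0. Mitochondrial genes took 0.652% and 0.568% of reads in 4T1 Gpr56 libraries, against 0.755% and 0.965% in 4T1 empty libraries. The part of these differences in the result was not tested. In bulk libraries fewer cells in a phase and less RNA per cell cannot be told apart.

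Wider lists of the same pathways were set beside the 11.5% of all genes called higher and the 11.3% called lower in 4T1. Of 50 other G1-S and replication genes, 1 rose and 17 fell (34.0%), with a median log2 fold change of -0.17. Rpa3, a subunit of the single-strand binding protein RPA, fell to 22.7 ± 3.09 CPM in 4T1 Gpr56 libraries, against 35.2 ± 1.25 CPM in 4T1 empty libraries (log2 fold change -0.61, SE 0.11, adjusted p = 0.000719; means ± SD of 2 libraries). The histone chaperone Asf1b rose (log2 fold change 0.27, SE 0.061, adjusted p = 0.00496). Of 47 other G2-M genes, 3 rose and 7 fell (14.9%, near the share of all genes), with a median of -0.064. The condensin subunit Smc4 had 226 ± 17.2 CPM in 4T1 Gpr56 libraries, against 299.97 ± 0.993 CPM in 4T1 empty libraries (log2 fold change -0.41, SE 0.060, adjusted p = 0.000202). Sgo1, which protects centromere cohesion, fell by 0.35 on the log2 scale. Ckap2l, a spindle protein, rose to 185 ± 7.77 CPM in 4T1 Gpr56 libraries, against 143 ± 4.47 CPM in 4T1 empty libraries (log2 fold change 0.37, SE 0.059, adjusted p = 0.000354), as did Arhgap11a (0.22). Of 17 pocket protein, repressor E2F and DREAM genes only Rbbp4 passed, lower (log2 fold change -0.20, SE 0.056, adjusted p = 0.0165), and of 16 APC/C subunits and inhibitors only Anapc4, lower (log2 fold change -0.28, SE 0.059, adjusted p = 0.00314). Cdkn1a, which encodes the CDK inhibitor p21, rose to 37.9 and 35.1 CPM in 4T1 Gpr56 libraries, against 24.7 and 21.04 CPM in 4T1 empty libraries (log2 fold change 0.68, SE 0.10, adjusted p = 0.000274), the only one of 4 tested CDK inhibitors to pass.

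In TS/A, none of the 58 members passed between vector labels, nor did any of the 11276 genes tested (0% called). At an unadjusted p under 0.05 there were 115 genes by edgeR and none of the members. DESeq2 called 1 gene higher and 2 lower and limma-voom 0, with 0 members in either. The median log2 fold change was -0.12 for G1-S and -0.075 for G2-M genes, beside -0.016 for all genes tested, with median SEs of 0.21 and 0.19. The smallest p in the G1-S class belonged to Slbp, the histone mRNA binding protein, with 118 and 112 CPM in TS/A Gpr56-label libraries, against 148 and 145 CPM in TS/A empty libraries (log2 fold change -0.36, SE 0.16, adjusted p = 0.9999). Cenpf, a kinetochore protein, had the smallest of the G2-M class, with 68.0 and 62.4 CPM in TS/A Gpr56-label libraries, against 110.5 and 56.6 CPM in TS/A empty libraries (log2 fold change -0.35, SE 0.31, adjusted p = 0.9999).

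The TS/A empty libraries bracketed many members. Mki67 had 165 and 138 CPM in TS/A Gpr56-label libraries, against 272 and 122 CPM in TS/A empty libraries (log2 fold change -0.37, SE 0.37, adjusted p = 0.9999). Foxm1 showed the same order, with 96.7 and 89.0 CPM in TS/A Gpr56-label libraries, against 121 and 77.1 CPM in TS/A empty libraries (log2 fold change -0.088, SE 0.24, adjusted p = 0.9999). Empty library 1 was thus high and empty library 2 low for these mitotic genes, with both labelled libraries between them. Ccne2 ran the other way between the empty libraries, at 68.8 and 67.0 CPM in TS/A Gpr56-label libraries, against 57.7 and 128 CPM in TS/A empty libraries. So did Ccnb1, at 422 and 411 CPM in TS/A Gpr56-label, against 365 and 508 CPM in TS/A empty libraries (log2 fold change -0.074, SE 0.23, adjusted p = 0.9999). Both labelled libraries fell between the 2 empty ones for 13 of 30 G1-S and 17 of 28 G2-M genes, beside 43.7% of all genes tested. Empty library 1 was the higher one for 6 of those 13 and 12 of those 17, beside 2646 of 4925 such genes among all tested. In 4T1 no member and 5.79% of all genes had both Gpr56 libraries between the 2 empty ones.

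Among the other regulators in TS/A, Ccnd1 had 590.1 and 539 CPM in TS/A Gpr56-label libraries, against 671 and 574 CPM in TS/A empty libraries (log2 fold change -0.14, SE 0.20, adjusted p = 0.9999). Ccnd3 had 38.5 and 33.9 CPM in TS/A Gpr56-label, against 41.0 and 37.6 CPM in TS/A empty libraries (log2 fold change -0.12, SE 0.18, adjusted p = 0.9999). Ccnd2 had 212 and 215 CPM in TS/A Gpr56-label libraries, against 204 and 208 CPM in TS/A empty libraries (log2 fold change 0.046, SE 0.17, adjusted p = 0.9999), with little spread within either pair. Ccne1 had 13.4 and 11.2 CPM in TS/A Gpr56-label libraries, against 13.5 and 18.3 CPM in TS/A empty libraries (log2 fold change -0.37, SE 0.25, adjusted p = 0.9999). Both labelled libraries lay below both empty libraries for Ccne1 but the gap to empty library 1 was small. The kinases Cdk4 (0.11, SE 0.22), Cdk6 (-0.22, SE 0.25) and Cdk1 (0.027, SE 0.20), with E2f1 (-0.16, SE 0.21) and Pcna (-0.13, SE 0.23), had log2 fold changes smaller than their SEs. The result depended on the empty libraries: without TS/A empty library 2, 687 genes were higher and 453 lower (9.88% of those tested), 4 members among them (Mki67 at -0.82, Cenpf at -0.74 and Cdk6 at -0.51 of those described). Without empty library 1 Mki67 had the opposite sign (0.31) and 1 member passed, beside 0.114% of all genes.

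The difference between the vector effects of the lines, TS/A minus 4T1, was tested over all 8 libraries and passed for 0 of the 58 members, beside 0.0668% of 11970 genes. Over all genes, 2 were higher and 6 lower by edgeR, with 766 at an unadjusted p under 0.05. DESeq2 called 27 higher and 38 lower and limma-voom 0, with 0 members in either. Its smallest member p was that of Ccne1, whose vector effect within each line was -0.37 in TS/A and 0.28 in 4T1 (difference -0.65, SE 0.25, adjusted p = 0.720). Among G2-M genes, Ccnb2 had -0.082 in TS/A and 0.23 in 4T1 (difference -0.31, SE 0.18, adjusted p = 0.837). For Ccnd1 the difference was 0.13 (SE 0.18) and for Ccnd3 0.23 (SE 0.17). Adgrg1 itself passed by edgeR (difference -5.67, SE 0.55, adjusted p = 0.0204), and it was not raised in TS/A Gpr56-label libraries. With the spread pooled over all 8 libraries, as here, 0 of the 17 member calls within 4T1 passed. The difference therefore cannot show whether the falls seen in 4T1 are particular to that line. Without TS/A empty library 2 the difference passed for 10 members (17.2%), Mki67 (-0.78), Cdk6 (-0.52) and Foxm1 (-0.36) among them, but also for 19.5% of all genes. Without TS/A empty library 1 it passed for 3 members (5.17%), beside 2.54% of all genes, with Ccne1 at -0.85.

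**Figure D4:**
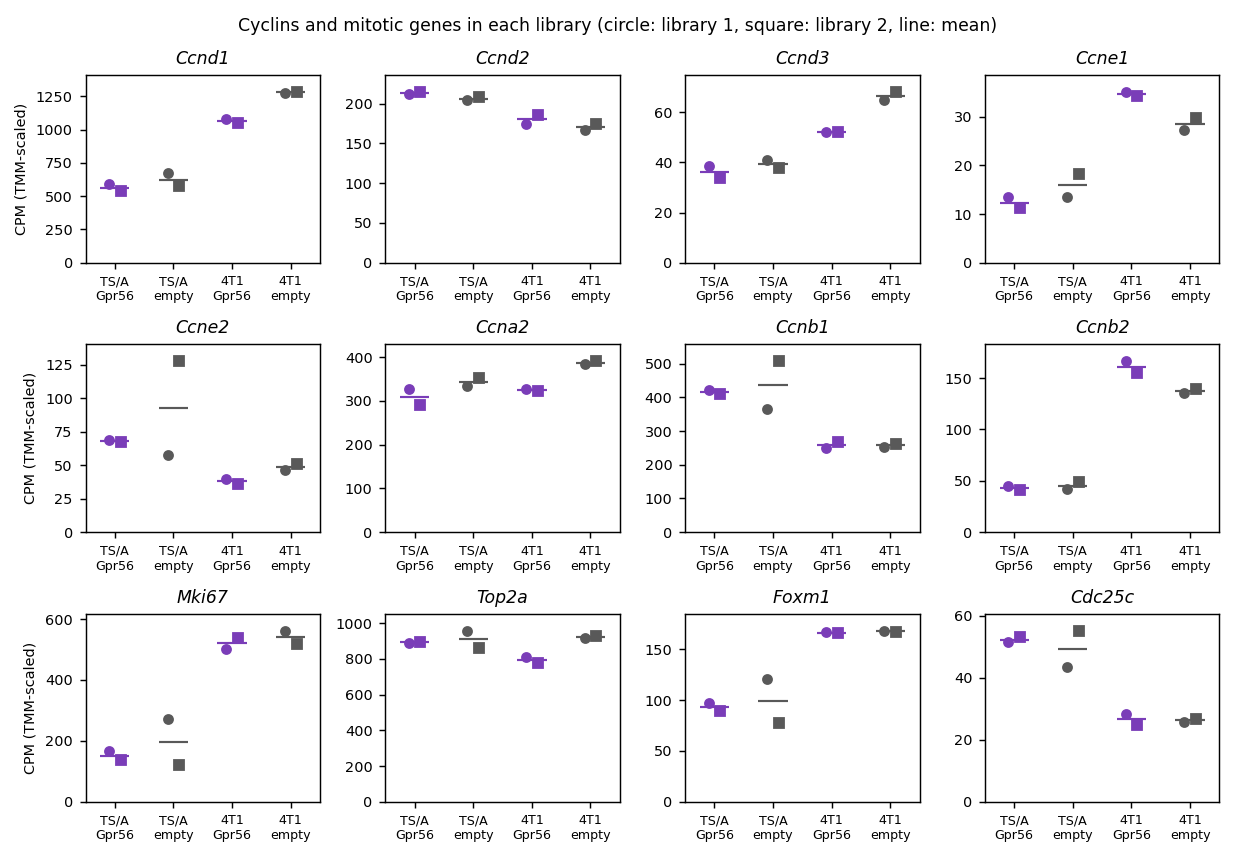
CPM (vertical axes, from 0) of 12 cyclins and mitotic genes in each library, grouped by line and vector label on the horizontal axes, with circles for library 1, squares for library 2 and a line at the mean. Ccnb2, Mki67, Ccnd1 and Ccne1 sit lower in TS/A and Ccnb1, Ccne2 and Cdc25c higher, and the TS/A empty pair is the most spread for Mki67 and Ccne2.

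Between the lines more members passed than between vectors, as did more of all genes. Calls were mostly lower in TS/A in both classes. Under both labels a larger share of G2-M than of G1-S genes was called, in each direction. The member totals were near the share of all genes. They were 28 of 58 (48.3%) between empty libraries, beside 47.4%, and 31 (53.4%) between Gpr56-label libraries, beside 54%. In empty-vector libraries TS/A was higher than 4T1 for 2 and lower for 9 of 30 G1-S genes, and higher for 5 and lower for 12 of 28 G2-M genes. The background was wide, with 47.4% of 11970 genes past the threshold, 23.9% higher and 23.5% lower. In Gpr56-label libraries the counts were 3 higher and 11 lower for G1-S and 4 higher and 13 lower for G2-M genes, beside 54% of all genes, 26.5% higher and 27.4% lower. Lower calls thus made up 30.0% and 36.7% of G1-S genes and 42.9% and 46.4% of G2-M genes in the empty and Gpr56-label libraries. Median log2 fold changes in the empty libraries were -0.15 for G1-S and -0.32 for G2-M, beside 0.015 for all genes, and in the Gpr56-label libraries -0.28 and -0.39, beside -0.0023. Calls in the same direction under both labels, which use different libraries but 1 estimate of the spread, numbered 10 for G1-S and 15 for G2-M. They made up 90.9% of the G1-S calls in empty and 71.4% of those in Gpr56-label libraries, and 88.2% of each for G2-M. Of the calls, 0 were opposite. This overlap was not counted over all genes, so it cannot be read as particular to the members.

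Among G1-S genes, Ccnd1 had 671 and 574 CPM in TS/A empty libraries, against 1278 and 1285 CPM in 4T1 empty libraries (log2 fold change -1.04, SE 0.13, adjusted p = 0.000355), and -0.92 between Gpr56-label libraries (SE 0.13). Every TS/A library was below every 4T1 library. Ccnd3 was lower as well (-0.76 in empty and -0.53 in Gpr56-label libraries), while Ccnd2 had 204 and 208 CPM in TS/A empty libraries, against 167 and 175 CPM in 4T1 empty libraries, and did not pass (log2 fold change 0.27, SE 0.10, adjusted p = 0.0567). Cdk4 (0.28, SE 0.14) and Cdk6 (0.0082, SE 0.20) did not pass between empty libraries.

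Of the E cyclins, Ccne1 was lower in TS/A and Ccne2 higher. Ccne1 had 13.4 and 11.2 CPM in TS/A Gpr56-label libraries, against 35.2 and 34.2 CPM in 4T1 Gpr56 libraries (log2 fold change -1.49, SE 0.18, adjusted p = 0.000272), and -0.85 between empty libraries (SE 0.18). Ccne2 had 57.7 and 128 CPM in TS/A empty libraries, against 46.5 and 50.9 CPM in 4T1 empty libraries (log2 fold change 0.93, SE 0.31, adjusted p = 0.0361). It lost this call in most alternatives, the fit of the 4 empty libraries (adjusted p = 0.125) included, with adjusted p between 1.61e-07 and 0.160 over 16 of them. E2f1 had 47.3 and 34.6 CPM in TS/A empty libraries, against 42.7 and 41.8 CPM in 4T1 empty libraries (log2 fold change -0.043, SE 0.17, adjusted p = 0.843). Pcna had 409 and 555 CPM in TS/A empty, against 469 and 483 CPM in 4T1 empty libraries (log2 fold change 0.019, SE 0.16, adjusted p = 0.932).

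In licensing, Cdt1, the partner of Cdc6, had 83.3 and 62.5 CPM in TS/A empty libraries, against 137 and 152 CPM in 4T1 empty libraries (log2 fold change -0.99, SE 0.15, adjusted p = 0.00132). Of the 6 helicase subunits, Mcm5 stood out with 285 and 329 CPM in TS/A empty libraries, against 568 and 547 CPM in 4T1 empty libraries (log2 fold change -0.86, SE 0.14, adjusted p = 0.00155). The other MCM2-7 genes did not pass between empty libraries. Pola1, the catalytic subunit of DNA polymerase alpha, was higher in TS/A, with 167 and 145 CPM in TS/A empty libraries, against 102 and 94.3 CPM in 4T1 empty libraries (log2 fold change 0.67, SE 0.13, adjusted p = 0.00325), and 0.50 between Gpr56-label libraries. Tyms passed between Gpr56-label libraries, with 192 and 193 CPM in TS/A, against 106 and 99.7 CPM in 4T1 (log2 fold change 0.90, SE 0.21, adjusted p = 0.00836), where the 4T1 libraries were those with the lower Tyms of that line.

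Among G2-M genes, the 2 B cyclins went opposite ways. Ccnb2 was the largest difference of the 58, with 41.5 and 49.0 CPM in TS/A empty libraries, against 135 and 139 CPM in 4T1 empty libraries (log2 fold change -1.60, SE 0.13, adjusted p = 3.66e-05). It had 45.01 and 40.8 CPM in TS/A Gpr56-label libraries, against 166 and 155 CPM in 4T1 Gpr56 libraries (log2 fold change -1.90, SE 0.13, adjusted p = 1.24e-05). Ccnb1 was higher, with 365 and 508 CPM in TS/A empty libraries, against 254 and 262 CPM in 4T1 empty libraries (log2 fold change 0.76, SE 0.16, adjusted p = 0.00513), and 0.68 between Gpr56-label libraries. Neither pair of groups overlapped. Cdk1, the kinase both bind, did not pass, with 281 and 354 CPM in TS/A empty libraries, against 350.1 and 331 CPM in 4T1 empty libraries (log2 fold change -0.10, SE 0.13, adjusted p = 0.556). Cdc25c, the phosphatase that activates Cdk1, was higher, with 43.4 and 55.2 CPM in TS/A empty libraries, against 25.9 and 26.7 CPM in 4T1 empty libraries (log2 fold change 0.90, SE 0.15, adjusted p = 0.00163).

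Mki67, a nuclear protein of cycling cells, had 165 and 138 CPM in TS/A Gpr56-label libraries, against 503 and 538 CPM in 4T1 Gpr56 libraries (log2 fold change -1.78, SE 0.32, adjusted p = 0.00214), and -1.45 between empty libraries (SE 0.31). Foxm1 had 96.7 and 89.0 CPM in TS/A Gpr56-label libraries, against 167 and 166 CPM in 4T1 Gpr56 libraries (log2 fold change -0.84, SE 0.19, adjusted p = 0.00650), and -0.76 between empty libraries. The midzone kinesin Kif23 was lower in TS/A, at -0.86 between empty and -1.01 between Gpr56-label libraries. Cenpf had -1.01 (SE 0.26) between Gpr56-label libraries, which passed, and -0.69 (SE 0.26) between empty libraries, which did not. Of the 5 mitotic kinases Plk1, Aurka and Ttk were lower in TS/A under both labels and the checkpoint kinase Bub1 higher (0.49 in empty and 0.61 in Gpr56-label libraries). The checkpoint protein Mad2l1 was higher (log2 fold change 0.61, SE 0.18, adjusted p = 0.0260 between empty libraries), and Kif20a passed between empty libraries (log2 fold change 0.47, SE 0.12, adjusted p = 0.0126). Between empty libraries Mad2l1 and Bub1 lost the call with the replicate block (log2 fold change 0.39, adjusted p = 0.114, and 0.31, adjusted p = 0.128). In the fit of the 4 empty libraries Mad2l1 (adjusted p = 0.105), Bub1 (0.0616) and Foxm1 (0.0664) lost it. Over 16 alternatives the adjusted p ran from 2.66e-06 to 0.152 for Mad2l1, from 0.000354 to 0.130 for Bub1 and from 5.19e-07 to 0.0664 for Foxm1. Top2a had 958 and 863 CPM in TS/A empty libraries, against 919 and 931 CPM in 4T1 empty libraries, with overlapping groups.

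**Figure D5:**
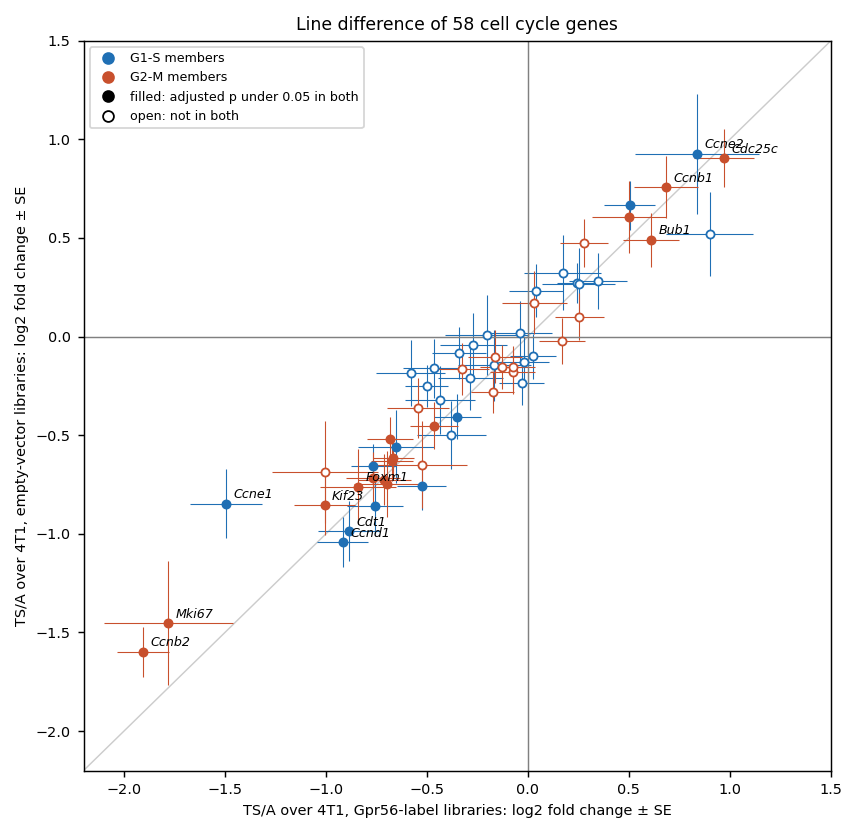
Log2 fold change of TS/A over 4T1 for each gene (points, bars ± SE) in Gpr56-label libraries (horizontal axis) and empty-vector libraries (vertical axis), with filled points past an adjusted p of 0.05 in both. Ccnb2 (-1.90 and -1.60) and Mki67 (-1.78 and -1.45) lie lowest, and Cdc25c, Ccne2, Ccnb1 and Bub1 at the upper right.

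The count of line differences changed with the libraries used. Of the 28 members called between empty libraries, 17 kept the call without 4T1 empty library 1 and 17 without library 2 (27.2% and 27.3% of all genes called), as in the fit of the 4 empty libraries alone (17 members, beside 31.9% of all genes). Without TS/A empty library 1, 45 members passed (77.6%), all 28 included, beside 64.1% of all genes, and without library 2, 35 did (60.3%), beside 56.8%. Of the 31 called between Gpr56-label libraries, 18 stayed without TS/A Gpr56 library 2, 23 without library 1, and 20 and 21 without 4T1 Gpr56 library 1 or 2. The shares of all genes in these settings were 34.6% to 39%. Without TS/A empty library 1 or 2, 46 passed (79.3%), beside 69.6% and 69.5% of all genes. In separate fits of the 4 libraries of each label (68.5% of all genes past the threshold in the Gpr56-label fit), 7 G1-S and 10 G2-M genes passed in the same direction under both, and again 0 opposite. That overlap was not counted over all genes either. Epithelial and fibroblast markers differed between the lines too. The 8 epithelial markers summed to 190 to 257 CPM in TS/A, against 2202 to 3262 CPM in 4T1. The 10 fibroblast markers summed to 142 to 355 CPM in TS/A, against 9.30 to 16.5 CPM in 4T1, of which Col1a1 made up most in TS/A and Lum and Thy1 were at 0. Their part in the line differences was not tested.

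Other genes of the pathway were called in both directions, beside 23.9% of all genes higher and 23.5% lower in TS/A empty libraries. Of 50 other G1-S and replication genes 8 were higher and 17 lower (34.0%). Among these were Gins3 (-1.15) of the GINS helicase cofactor and the phosphatase Cdc25a (-1.10) lower, with the primase subunit Prim2 (1.198) higher. Of 47 other G2-M genes 3 were higher and 12 lower (25.5%, near the share of all genes), with the passenger complex subunit Cdca8 (-1.11) and Ckap2l (-0.89) lower and the kinetochore gene Nuf2 (0.85) and the Cdk-binding Cks2 (0.66) higher. In the Gpr56-label libraries 12 of 50 were higher and 18 lower, and 7 of 47 higher and 12 lower, beside 26.5% and 27.4% of all genes. Of 17 pocket protein, repressor E2F and DREAM genes 6 were higher and 6 lower in empty libraries. All 3 pocket proteins were higher in TS/A, Rb1 by 1.18, Rbl2 by 0.54 and Rbl1 by 0.35 on the log2 scale, with E2f6 (1.01), whereas Mybl2 (-0.998) and E2f7 (-0.97) were lower. Of 16 APC/C subunits and inhibitors 4 were higher (25%, also near that share) and 2 lower, Anapc15 (0.65) and Anapc11 (0.60) against the APC/C inhibitor Fbxo5 (-0.56) and the coactivator Fzr1 (-0.42).

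Of 6 tested CDK inhibitors, 4 were higher and 1 lower in TS/A between empty libraries, beside 23.9% and 23.5% of all genes. Between Gpr56-label libraries 3 were higher and 1 lower, beside 26.5% and 27.4%. The INK4 inhibitors, which block Cdk4 and Cdk6, differed between the lines to unlike degrees. Cdkn2a had 5119 and 3464 reads in TS/A Gpr56-label libraries and 4446 and 3828 in TS/A empty libraries (159.8 to 206.1 CPM), against 0 and 0 reads in 4T1 Gpr56 libraries and 0 and 1 in 4T1 empty libraries. Its neighbour Cdkn2b had 864 and 889 reads in TS/A Gpr56-label libraries and 753 and 677 in TS/A empty libraries, against 0 and 0 reads in 4T1 Gpr56 libraries and 0 and 2 in 4T1 empty libraries. Both genes were at or under 3 reads, the limit that a count of 0 allows, in every 4T1 library. Counts by gene do not separate the p16 and p19 transcripts of Cdkn2a. Cdkn2c was lower in TS/A instead, with 20.1 and 14.1 CPM in TS/A empty libraries, against 57.7 and 63.6 CPM in 4T1 empty libraries (log2 fold change -1.82, SE 0.18, adjusted p = 0.000119). Cdkn2d, also an INK4 gene, had 16.2 and 24.1 CPM in TS/A empty libraries, against 14.2 and 11.5 CPM in 4T1 empty libraries. It had 21.9 and 24.5 CPM in TS/A Gpr56-label libraries, against 16.6 and 14.3 CPM in 4T1 Gpr56 libraries. Cdkn1a was higher, with 175 and 151 CPM in TS/A empty libraries, against 24.7 and 21.04 CPM in 4T1 empty libraries (log2 fold change 2.84, SE 0.16, adjusted p = 5.63e-06). It had 189 and 154 CPM in TS/A Gpr56-label libraries, against 37.9 and 35.1 CPM in 4T1 Gpr56 libraries (2.23, SE 0.16). Cdkn1b did not pass between empty libraries (0.29, SE 0.18).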

How the data were processed

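RNA of 8 libraries was sequenced after extraction with the RNeasy Mini Kit; libraries were prepared, per the labels' protocols, by a TruSeq RNA kit (v2) that does not mark strand. The authors deposited, per the file headers, a whole-number read count and an RPKM value for each of 65042 transcripts in each library. Which aligner, counter, genome build and annotation gave them is not given in the sources used here. Deposited counts were summed per gene symbol, and deposited RPKM values were summed for ranks only and entered no test. Splitting of reads between near-identical copies by the authors' counting is unknown, which touches Pcna through a pseudogene (Pcna-ps2, 401 reads in all libraries). The annotated pseudogenes Pcna-ps1, Ccnb1-ps, Ccnb2-ps, Ccnd3-ps and Tyms-ps have no entry in the deposited counts. Where their reads went is unknown, which touches Pcna, Ccnb1, Ccnb2, Ccnd3 and Tyms.

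Depth was 10510569 to 25959142 reads per library, and 3 reads equalled 0.116 to 0.285 CPM. Groups follow the vector in the sample characteristics. Tests used edgeR 4.0.16 in R 4.3.3 with filterByExpr, TMM, glmQLFit and glmQLFTest, and Benjamini-Hochberg adjustment over all genes tested at 0.05. The vector comparisons were fitted within each line (4 libraries), and the line comparisons and the difference of vector effects over all 8. SE is the log2 fold change over the square root of F. Scripts were tested on simulated counts with known changes. Alternatives were DESeq2 1.42.0 (its test and its size factors), limma-voom 3.58.1, library totals, other filters, a replicate block, other sets of libraries and leaving out each library.

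The members and lists were chosen with earlier results of these data known. Given in full were 12 regulators and, per comparison and class, the largest called changes, at most 4 up and 4 down (the smallest p where none passed), and from pathway lists up to 2 each way, some of which are not reported here. Further members named were chosen after their values were seen. Exon overlaps and pseudogene names come from GENCODE M21 (GRCm38).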

Additional observations from a re-analysis of the deposited data

How the results depend on the processing

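No member past the threshold changed sign under any alternative run, with 0 reversals among 17, 28 and 31 called members in the 4T1 vector comparison and in TS/A against 4T1 in empty and in Gpr56-label libraries, though calls were gained and lost. In the 4T1 vector comparison the fit of all 8 libraries gave 15 genes higher and 12 lower, and 0 higher and 0 lower for both G1-S and G2-M genes. DESeq2 gave 795 and 754 genes there, 0 G1-S genes higher and 2 G2-M genes lower, library totals gave 2 G2-M genes higher and 2 lower and turned Cdk6 and Foxm1 to 0.022 each, and no filter gave 2 G2-M genes higher. In the TS/A label comparison DESeq2 gave 1 gene higher and 2 lower, no filter 2 and 2, and the fit of all 8 libraries 1 lower. In the difference of vector effects library totals gave 0 genes higher, DESeq2 27 higher and 38 lower, limma-voom 0 and 0, and no filter 26 and 34. In TS/A against 4T1 in empty libraries DESeq2 gave 4 and limma-voom 1 G1-S genes higher, limma-voom turned Cdk6 to -0.031, and the fit of the 4 empty libraries gave 1829 genes, 1 G1-S gene and 2 G2-M genes higher. In Gpr56-label libraries the fit of those 4 alone gave 6 G1-S genes higher. The cause of these shifts was not tested.

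Replicate numbers are shared between groups, but nothing in the labels says that they pair cultures. Deviations of same-numbered libraries correlated at -0.04 in 4T1 and 0.42 in TS/A over 11970 genes, with 2 pairs per line. With the replicate block, 2 G2-M genes were higher in the 4T1 vector comparison, 20 genes were higher and 6 lower in the TS/A label comparison (0 members), and 17 were higher and 20 lower in the difference of vector effects. The block also gave 1 G1-S gene and 3 G2-M genes higher in TS/A empty libraries, and E2f1 at 0.10 and Pcna at -0.0077 there.

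For the 4T1 vector comparison, leaving out 1 library at a time gave 775 to 1350 higher and 628 to 1398 lower for all genes, 0 to 2 higher and 4 to 10 lower for G1-S genes and 0 to 2 higher and 0 to 6 lower for G2-M genes. For the TS/A label comparison, leaving out 1 library at a time gave 2 to 687 higher and 2 to 453 lower for all genes, 0 to 1 higher and 0 to 1 lower for G1-S genes and 0 to 0 higher and 0 to 2 lower for G2-M genes. For the difference of vector effects, leaving out 1 library at a time gave 0 to 1158 higher and 0 to 1233 lower for all genes, 0 to 2 higher and 0 to 3 lower for G1-S genes and 0 to 1 higher and 0 to 5 lower for G2-M genes. For TS/A against 4T1 in empty libraries, leaving out 1 library at a time gave 1556 to 3851 higher and 1779 to 4002 lower for all genes, 1 to 7 higher and 6 to 16 lower for G1-S genes and 1 to 6 higher and 8 to 16 lower for G2-M genes. For TS/A against 4T1 in Gpr56-label libraries, leaving out 1 library at a time gave 2000 to 4243 higher and 2234 to 4305 lower for all genes, 0 to 7 higher and 6 to 17 lower for G1-S genes and 2 to 7 higher and 9 to 15 lower for G2-M genes. Where this left 1 library in a group, that library was assumed to vary like the others. Genes with no call changed sign in some of these. In the 4T1 vector comparison these were Cdk6 -0.040 to 0.023, Ccnb1 -0.046 to 0.058, Mki67 -0.11 to 0.0087, Pcna -0.14 to 0.0068. In the TS/A label comparison these were Cdk4 -0.070 to 0.35, Cdk6 -0.51 to 0.18, E2f1 -0.35 to 0.074, Foxm1 -0.35 to 0.26, Cdk1 -0.13 to 0.23, Mki67 -0.82 to 0.31, Cenpf -0.74 to 0.20, Ccnb1 -0.29 to 0.21, Pcna -0.33 to 0.14. In the difference of vector effects these were Ccnd2 -0.066 to 0.019, Pcna -0.26 to 0.18, Cdk4 -0.12 to 0.28, Cdk6 -0.52 to 0.20, E2f1 -0.43 to 0.022, Foxm1 -0.36 to 0.28, Mki67 -0.78 to 0.37, Ccnb1 -0.29 to 0.19, Cdk1 -0.21 to 0.12. In TS/A against 4T1 in empty libraries these were Pcna -0.22 to 0.22, Cdk6 -0.40 to 0.32, Cdk1 -0.28 to 0.057, E2f1 -0.29 to 0.16. In TS/A against 4T1 in Gpr56-label libraries these were Pcna -0.13 to 0.046. Depth limited few members: counting error, at most 7.96% (E2f2, 158 reads), exceeded the 4T1 coefficient of variation of 5.47% for E2f2 and Cdc25c. The 2 libraries per group and the spread between the TS/A empty libraries did limit the precision.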
